A study of Mus musculus with 12 samples.

Results

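Egln3, P4ha2, Ankrd37, Ndrg1, Car9 and Adm are genes that hypoxia-inducible factors (HIFs) are known to induce and that lie outside glycolysis. They are 6 of 11015 genes measured on Affymetrix mouse arrays in cultured aortic endothelial cells. They were read through all probe sets whose platform annotation names exactly 1 of these symbols, 12 of the 20523 deposited. Ndrg1 has 5 of these, Egln3 and Adm have 2 each, and P4ha2, Ankrd37 and Car9 have 1 each. The genes were chosen by measured values, namely their log2 differences between Ets2KO and WT cells and between cells labelled DKO and WT cells. Their values in those comparisons, and in others that reuse the same arrays, are therefore given as a description without a test.

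The study removed Ets1, Ets2 or both, a pair of ETS-family transcription factors, from endothelial cells and profiled their RNA. By their labels, cells of the DKO group carried Ets1-/- and Ets2fl/fl and received a lentivirus for eGFP and Cre, with 2 arrays used. Ets2KO cells carried Ets1+/+ and Ets2fl/fl with the same eGFP and Cre virus (3 arrays). Ets1KO cells carried Ets1-/- and Ets2fl/fl with an eGFP virus lacking Cre (3 arrays), and WT cells carried Ets1+/+ and Ets2+/+ with that same virus (3 arrays). All cells came from aortas of mice aged 4 weeks and were grown in the same complete endothelial medium. Cre was present wherever Ets2 was to be deleted, and every group but WT carried floxed Ets2 alleles, so these cannot be told apart from the losses. The share of cells that took up the virus was not analysed here. The titles speak of biological replicates, but nothing else says that arrays came from separate animals, so p-values measure a spread that may be technical.

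HIFs are transcription factors whose alpha subunits are hydroxylated by oxygen-dependent prolyl hydroxylases and then destroyed through the von Hippel-Lindau protein. When oxygen is low the alpha subunit persists, pairs with Arnt and binds short hypoxia-response elements near its target genes. In endothelium these targets serve matrix building, pH control, vessel tone and feedback on oxygen sensing itself.

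A few facts of the whole series touch every value below. Of the columns labelled DKO, the last was left out, because in 20521 of 20523 probe sets it equals the average of the other two to within 1e-05. The medians over the tested genes were 8.69 to 8.73 in the arrays labelled DKO, 9.39 to 9.45 in Ets2KO, 9.46 to 9.49 in Ets1KO and 9.37 to 9.50 in WT. Comparisons with the arrays labelled DKO are therefore given relative to array medians (after subtracting the array's own median) with the deposited log2 values beside them. At the 99th percentile the arrays labelled DKO read 13.55 and 13.59, and the 9 others 13.90 to 13.96, so the subtraction adds more to bright genes than those genes were shifted. Ets1 read 10.02 to 10.29 in the arrays labelled DKO, 8.31 to 9.17 in Ets1KO and 9.84 to 10.26 in WT. The next Ets1 probe set in brightness averaged 9.81 in the arrays labelled DKO, 8.61 in Ets1KO and 9.83 in WT, so at both the label DKO is not borne out for Ets1. The dimmer ones averaged 6.77 and 7.69 in the arrays labelled DKO, 8.26 and 7.60 in Ets1KO, and 8.77 and 8.30 in WT. Ets2 read 11.02 and 9.63 in the arrays labelled DKO and averaged 9.70 in Ets2KO and 10.14 in WT. Relative to array medians it was 0.90 higher in the arrays labelled DKO than in WT (adjusted p = 0.121) and 0.18 as deposited (adjusted p = 0.747), so it was not called lower there. Ets2 was 0.44 lower in Ets2KO than in WT (SE 0.38, limma adjusted p = 0.557). Its loss was thus not called there either, so this probe set cannot settle the label DKO for Ets2. By Xist against Eif2s3y, the 3 Ets2KO arrays and WT replicate 1 were male-like and the 7 others female-like. Of 15 endothelial markers 5 were matched, Pecam1 and Cdh5 not among them, and Kdr and Egfl7, both defining markers, lay below the array median on all 11 arrays. Eng lay above it in WT replicates 1 and 2 and every Ets2KO array, and below it elsewhere. Cd34 lay above it in those arrays and the first array labelled DKO, up to 3.30 in WT replicate 1. Flt1 lay above it only in the second array labelled DKO (0.79).

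The oxygen sensor of the set is Egln3, a prolyl hydroxylase that marks HIF alpha subunits for destruction and is itself a HIF target. Egln3 read 12.19 and 12.02 in the arrays labelled DKO, 6.51, 7.31 and 6.87 in Ets2KO, 8.70, 10.29 and 9.23 in Ets1KO, and 9.03, 9.93 and 9.84 in WT. Every array labelled DKO lay above every other array and every Ets2KO array below every other array, while Ets1KO and WT overlapped. The second Egln3 probe set gave the same picture, with means of 12.00 in the arrays labelled DKO, 6.90 in Ets2KO, 9.25 in Ets1KO and 9.38 in WT. A lower value in such cultures can come from fewer cells of a type or from less RNA per cell, which bulk arrays cannot tell apart.

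P4ha2 encodes a catalytic subunit of the prolyl hydroxylase that stabilises collagen. P4ha2 read 12.56 and 12.91 in the arrays labelled DKO, 8.29, 8.05 and 8.77 in Ets2KO, 10.15, 10.18 and 9.73 in Ets1KO, and 9.82, 10.36 and 10.19 in WT. The arrangement was that of Egln3, with the arrays labelled DKO highest, Ets2KO lowest and the other groups overlapping. Its SD within groups of 3 was 0.36 in Ets2KO, 0.25 in Ets1KO and 0.27 in WT, less than for Ndrg1, Car9 or Adm in WT.

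Ankrd37 encodes an ankyrin repeat protein that is widely used as a hypoxia marker. Ankrd37 read 10.88 and 12.06 in the arrays labelled DKO, 5.91, 7.25 and 6.43 in Ets2KO, 8.46, 10.87 and 9.87 in Ets1KO, and 8.03, 8.69 and 8.41 in WT. Ets1KO spread widely and overlapped WT, and its replicate 2 lay within 0.01 of the lower array labelled DKO on the deposited scale. Ets2KO again lay below every other array.

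Ndrg1, a stress-responsive gene linked to growth arrest and differentiation, spread more within Ets2KO, Ets1KO and WT than Egln3, P4ha2 or Ankrd37 did. Its brightest probe set read 11.91 and 12.46 in the arrays labelled DKO, 6.78, 9.15 and 9.09 in Ets2KO, 7.67, 10.22 and 9.51 in Ets1KO, and 8.97, 9.27 and 10.95 in WT. The arrays labelled DKO lay above all others, and the 3 other groups overlapped one another. For Egln3, Ankrd37 and Ndrg1 alike, Ets1KO replicate 2 was the highest and replicate 1 the lowest array of Ets1KO.

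Car9 encodes a membrane carbonic anhydrase that acidifies the outside of hypoxic cells. Car9 read 10.55 and 8.69 in the arrays labelled DKO, 6.49, 6.61 and 7.04 in Ets2KO, 6.18, 6.74 and 6.02 in Ets1KO, and 6.88, 9.33 and 9.66 in WT. Both single-loss groups were low and tight, whereas WT fell apart into 1 low and 2 high arrays and overlapped the arrays labelled DKO. The low WT array is replicate 1, the only male-like one of its group.

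Adm encodes adrenomedullin, a secreted peptide that widens vessels and tightens the endothelial barrier. Its brightest probe set read 10.17 and 8.66 in the arrays labelled DKO, 6.91, 6.69 and 9.62 in Ets2KO, 6.19, 6.36 and 6.45 in Ets1KO, and 9.32, 9.55 and 7.22 in WT. Ets1KO alone was uniform and lay below every other array, while arrays of the other groups lay far apart within their group. The name of this probe set ends in x, which on these arrays marks probes that may also bind other transcripts.

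**Figure D1:**
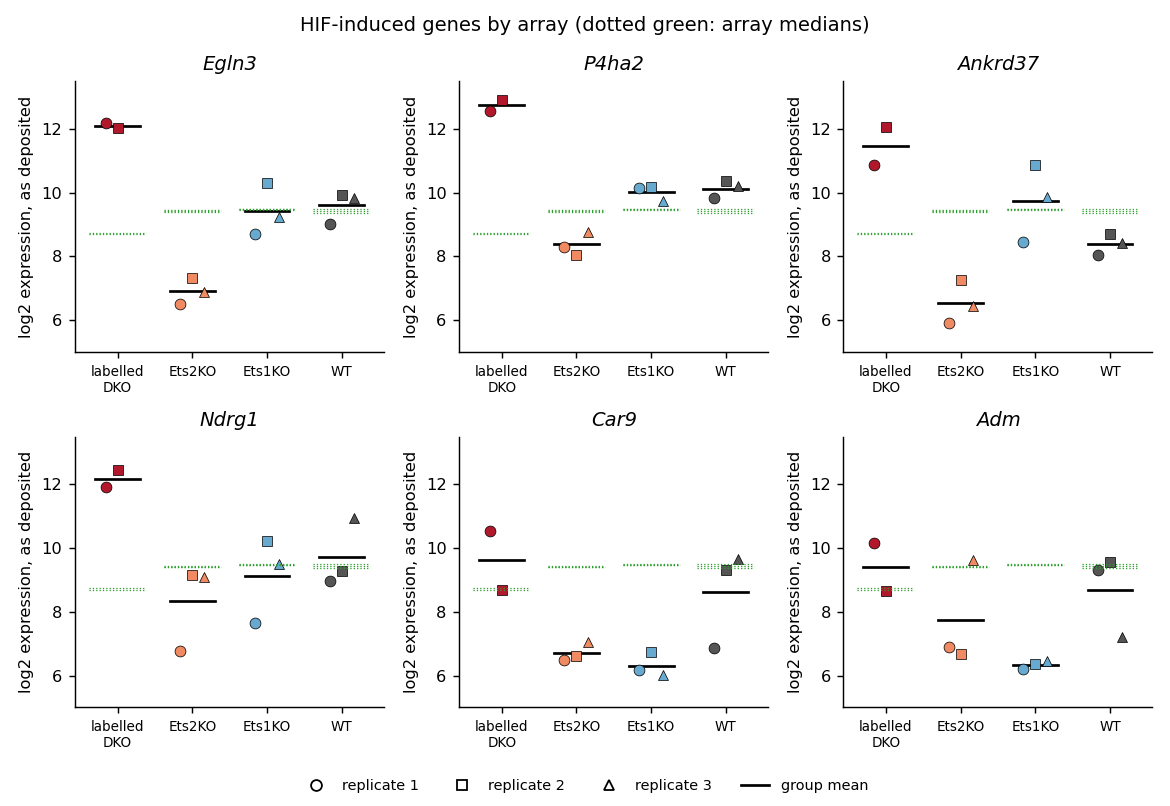
Log2 expression as deposited for the brightest probe set of each gene, with 1 panel per gene, 1 point per array (circle, square and triangle for replicates 1, 2 and 3), black bars for group means and dotted green lines for array medians. Egln3, P4ha2, Ankrd37 and Ndrg1 are highest in the arrays labelled DKO, whereas Car9 and Adm overlap WT there, and Egln3 in Ets2KO sits at 6.51 to 7.31.

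Levels of other cell types' markers also varied by array, and in places with Car9 and Adm. Adm was high in Ets2KO replicate 3 and low in the 3 Ets1KO arrays. The mean of the 4 matched adipocyte markers (of 8 listed), relative to array medians, was 0.74, 2.98 and 3.75 in Ets2KO and -3.54, -3.18 and -3.34 in Ets1KO. In WT it was -1.56, -2.37 and 2.49, highest in replicate 3, where Adm was lowest. Between the arrays labelled DKO, replicate 1 was higher for Car9 and Adm, for adipocyte markers (0.19 against -2.66), for fibroblast markers (1.36 against 0.26, 9 of 10 matched) and for smooth muscle markers (0.24 against -0.99, 6 of 8 matched). Pericyte markers averaged 0.42 against -0.43, but macrophage and leukocyte markers -2.23 against -1.80. The members of a list did not all move alike. Postn read 1.95 against -3.46, Acta2 5.31 against 1.82 and Tagln 2.31 against -2.30. Pdgfra (2.60 against 3.24) and Smtn (-0.11 against 1.70) ran the other way, and Fbln1 and Des hardly differed. The part of other cell types in the values of Car9 and Adm was not tested.

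Promoters were looked up because Egln3, P4ha2 and Ankrd37 were arranged alike across the groups. RefSeq promoters on build GRCm38.p6 were matched for Egln3, P4ha2, Ankrd37, Car9 and Adm. The 250 bases before each start were searched on both strands for ACGTG and GCGTG, the cores of hypoxia-response elements. The 4 stretches printed here run 5′ to 3′ on the gene's strand and end at the base before its start, with each match in capitals (CACGT and CACGC are matches on the opposite strand). That of Egln3 is the minus strand of chr12:54203875-54204124, and the others are plus strand, at chr11:54100804-54100923 for P4ha2, chr4:43506906-43507025 for Car9 and chr7:110627537-110627656 for Adm.
Egln3: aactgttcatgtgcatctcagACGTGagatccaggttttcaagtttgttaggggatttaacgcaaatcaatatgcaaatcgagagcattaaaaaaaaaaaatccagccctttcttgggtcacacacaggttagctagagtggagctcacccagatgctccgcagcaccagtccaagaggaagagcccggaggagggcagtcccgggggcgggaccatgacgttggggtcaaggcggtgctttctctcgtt
P4ha2: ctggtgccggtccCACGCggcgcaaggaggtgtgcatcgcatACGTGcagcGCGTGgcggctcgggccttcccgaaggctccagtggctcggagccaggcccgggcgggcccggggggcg
Car9: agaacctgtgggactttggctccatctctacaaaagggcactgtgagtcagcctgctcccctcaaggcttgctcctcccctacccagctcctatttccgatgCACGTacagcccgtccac
Adm: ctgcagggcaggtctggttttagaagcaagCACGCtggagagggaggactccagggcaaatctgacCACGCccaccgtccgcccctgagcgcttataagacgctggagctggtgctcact

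The stretches show that the cores differ in number and place. Egln3 has 1 match, far from its start at -229 to -225, and Car9 has 1 close to it, at -18 to -14. P4ha2 has 3 matches between -107 and -65, Adm has 2 between -90 and -50, and Ankrd37 has 4, of which those at -155 to -151 and -152 to -148 overlap. ACGTG or GCGTG occurs in 5 of these 5 promoters and in 38.6% of all 32851 promoters of the same length, with ACGTG in 16.6% and GCGTG in 28.2%, some of them holding both. CCGGAA, a core that ETS factors bind, occurs in 0 of the 5 and in 12.0% of all. A match is a string of letters and not a site shown to be bound, and a missing match says only that these letters are not in this window.

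Of the 5 comparisons, only that of Ets1KO with WT is tested for the 6 genes, since it did not enter their choice, although its WT arrays did. Ankrd37 was 1.35 higher in Ets1KO than in WT (SE 0.60, adjusted p = 0.578) and the 5 others were lower on the log2 scale as deposited, where 1 unit is a doubling. Car9 differed by -2.31 (SE 0.71, adjusted p = 0.477) and Adm by -2.36 (SE 0.85, adjusted p = 0.525). Egln3 (-0.19, SE 0.41, adjusted p = 0.924), P4ha2 (-0.10, SE 0.23, adjusted p = 0.927) and Ndrg1 (-0.60, SE 0.84, adjusted p = 0.868) differed by less than their SE. By limma 0 of 6 genes passed at an adjusted p below 0.05, where 0.00908% of all genes did, and 3 of 6 had an unadjusted p below 0.05, as did 8.62% of all genes. Car9 and Adm did not overlap between the groups and were lower, as were 9.08% of all genes. The second Adm probe set differed by -3.06, with Ets1KO arrays between 5.47 and 5.54 and WT arrays between 6.44 and 9.73. Among female-like arrays, which leaves WT replicate 1 out, Car9 differed by -3.18 and Adm by -2.05.

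In Ets2KO all 6 genes had lower means than in WT, a contrast that was used to choose them. The differences as deposited were -2.70 for Egln3 (SE 0.41), -1.75 for P4ha2 (SE 0.23), -1.85 for Ankrd37 (SE 0.60), -1.39 for Ndrg1 (SE 0.84), -1.91 for Car9 (SE 0.71) and -0.96 for Adm (SE 0.85). Their median was -1.80, where that of all genes was -0.02. Egln3, P4ha2 and Ankrd37 did not overlap between the groups and were lower, as were 14.1% of all genes. All Ets2KO arrays were male-like, and set against WT replicate 1, the male-like WT array, the differences were -2.13 for Egln3, -1.45 for P4ha2, -1.50 for Ankrd37, -0.63 for Ndrg1, -0.16 for Car9 and -1.58 for Adm. The part of sex was not tested beyond this, since only WT holds arrays of both kinds. Ndrg1 in Ets2KO was lowest in replicate 1, and without that array its difference was -0.61. For Adm it was -1.90 without Ets2KO replicate 3 and -1.70 without WT replicate 3, and -0.43 to -0.64 without any other array of these groups.

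In the arrays labelled DKO all 6 genes had higher means than in WT, the other contrast used in choosing them. Relative to array medians the differences were 3.23 for Egln3 (SE 0.45), 3.33 for P4ha2 (SE 0.25), 3.81 for Ankrd37 (SE 0.67), 3.18 for Ndrg1 (SE 0.93), 1.72 for Car9 (SE 0.77) and 1.44 for Adm (SE 0.95). As deposited they were 2.51, 2.61, 3.09, 2.46, 0.999 and 0.72 in the same order of genes. The median was 3.20 relative to array medians and 2.48 as deposited, where that of all genes was 0.11 and -0.61. On either scale 4 of the 6 genes, all but Car9 and Adm, did not overlap and were higher, as were 30.2% of all genes relative to array medians and 5.63% as deposited. The difference of Car9 was 0.81 without the first array labelled DKO, 2.63 without the second and 0.88 without WT replicate 1, all relative to array medians. That of Adm was 0.70 without the first array labelled DKO, 2.17 without the second and 0.66 without WT replicate 3. Between the arrays labelled DKO and WT the second Adm probe set differed by 0.75 relative to array medians and 0.03 as deposited.

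By the labels, the DKO group shares its Ets1 and Ets2 alleles with Ets1KO and differs by Cre, and all arrays of both groups were female-like. At the brightest Ets1 probe set, however, the arrays labelled DKO lay 1.41 above Ets1KO as deposited (limma adjusted p = 0.0019). They lay 2.17 above it relative to array medians (adjusted p = 0.000713), so a shared Ets1 genotype is not borne out there. The next probe set in brightness gave 1.20 as deposited and 1.96 relative to array medians. The dimmer ones gave -1.50 and -0.74, and 0.09 and 0.85, so the Ets1 probe sets disagree in direction. Relative to array medians Egln3 was 3.46 higher than in Ets1KO (SE 0.45, 2.70 as deposited), P4ha2 3.48 (SE 0.25, 2.72) and Ankrd37 2.50 (SE 0.67, 1.74). Ndrg1 was 3.81 higher (SE 0.93, 3.05 as deposited), Car9 4.07 (SE 0.77, 3.31) and Adm 3.84 (SE 0.95, 3.08). As deposited all 6 genes lay higher without overlap, by only 0.01 for Ankrd37, as did 5.66% of all genes, and relative to array medians all 6 did, as did 36.2% of all genes.

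Against Ets2KO, which received the same virus, the differences for Egln3, P4ha2, Ankrd37 and Ndrg1 were wider than against WT or Ets1KO. All 6 genes lay below WT in Ets2KO, a contrast used to choose them, so differences wider than against WT follow from that choice. Relative to array medians Egln3 was 5.91 higher in the arrays labelled DKO (SE 0.45, 5.21 as deposited), P4ha2 5.07 (SE 0.25, 4.37) and Ankrd37 5.64 (SE 0.67, 4.93). Ndrg1 was 4.55 higher (SE 0.93, 3.84 as deposited), Car9 3.61 (SE 0.77, 2.91) and Adm 2.38 (SE 0.95, 1.67). All but Adm lay higher without overlap on either scale, as did 32.3% of all genes relative to array medians and 6.63% as deposited. These groups also differ in Xist and Eif2s3y on every array. The 3 comparisons with the arrays labelled DKO share those arrays and are not independent of one another.

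**Figure D2:**
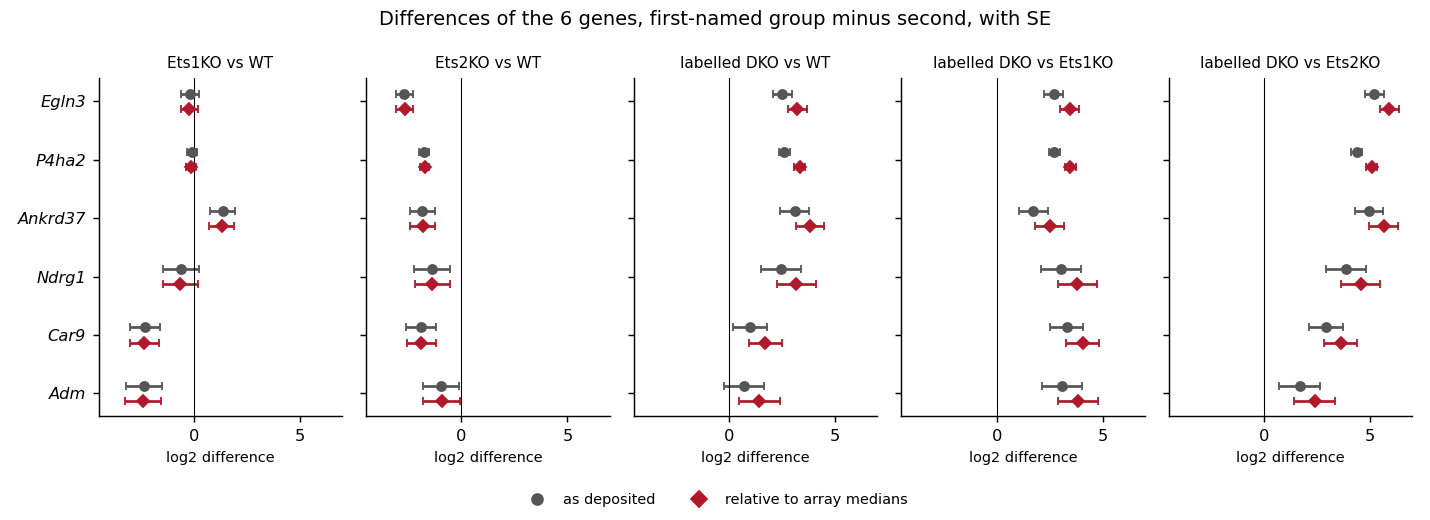
Log2 differences of the 6 genes in 5 comparisons, first-named group minus second, with bars of 1 SE from limma, as deposited (grey circles) and relative to array medians (red diamonds). All 6 genes lie below 0 in Ets2KO vs WT and above 0 in the 3 comparisons of arrays labelled DKO, and the scales lie apart by about 0.7 in those comparisons only.

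Probe sets of 1 gene did not always move alike in the arrays labelled DKO. The 5 Ndrg1 probe sets, from brightest to dimmest, were 3.18, 1.92, 3.68, 0.46 and 0.98 higher in the arrays labelled DKO than in WT relative to array medians. As deposited the same probe sets gave 2.46, 1.20, 2.96, -0.26 and 0.26, so the direction of 1 of them depends on the scale. In Ets2KO against WT the 5 agreed more closely, at -1.39, -1.13, -1.33, -0.84 and -1.38 as deposited. In Ets1KO against WT they lay between -0.60 and -0.29. Ets2KO replicate 1 and Ets1KO replicate 1 were the lowest arrays of their groups on all 5 Ndrg1 probe sets. The 2 Egln3 probe sets gave 3.23 and 3.34 for the arrays labelled DKO against WT and -2.70 and -2.48 as deposited for Ets2KO against WT.

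**Figure D3:**
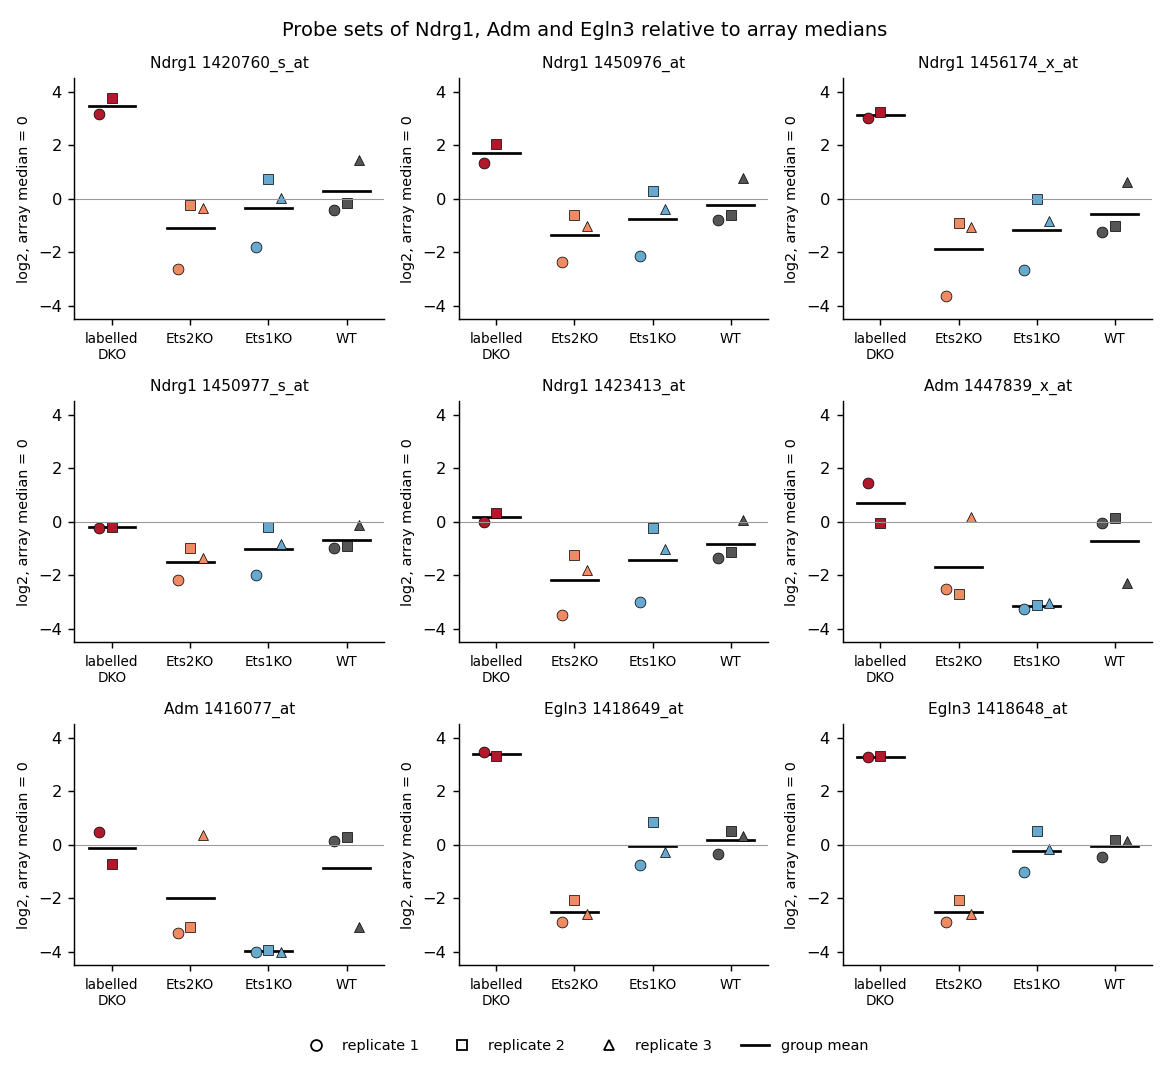
Log2 level relative to the array median (0) for each probe set of Ndrg1, Adm and Egln3, with 1 panel per probe set, 1 point per array and black bars for group means. The arrays labelled DKO average 3.47 on the brightest Ndrg1 probe set and -0.21 on the fourth in brightness, while the Egln3 probe sets match each other.

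Across the 11 arrays each gene was set against the mean of the 5 others, relative to array medians. Pearson's r was 0.94 for P4ha2, 0.93 for Egln3, 0.89 for Ndrg1, 0.79 for Car9, 0.78 for Ankrd37 and 0.54 for Adm. These values describe arrays of 4 groups, so they carry the differences between groups. By the same measure, out of 5505 candidates whose mean exceeded that of the median gene, the genes most like the 6 were Higd1a, Fam162a, Slc2a1, Nfx1 and Aldoa (r = 0.97 each). Higd1a, a mitochondrial protein, lay 4.64 and 4.35 above the median in the arrays labelled DKO, 0.83, 0.75 and 1.04 in Ets2KO, 1.36, 2.54 and 2.21 in Ets1KO, and 2.33, 2.52 and 2.72 in WT. As with Egln3, the arrays labelled DKO were highest, Ets2KO lowest, and Ets1KO replicate 2 above replicate 1. Higd1a was picked for its likeness to the 6 genes over these same arrays, so this arrangement is no separate observation. At the other Higd1a probe sets Ets2KO differed from WT by 0.04 and -0.0034 as deposited, where the brightest gave -1.67.

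Other genes that HIF is known to induce outside glycolysis were followed as a list of 34, of which 29 were measured. This list and those below were written with earlier results of these data known. Their counts and p-values are therefore no independent support. In the arrays labelled DKO 13 of the 29 rose and 0 fell against WT by limma relative to array medians, where 16.4% of all genes rose and 12% fell. As deposited 6 rose and 2 fell, where 2.32% of all genes rose and 43.6% fell. The median of the list was 1.14 relative to array medians and 0.42 as deposited. Those that rose include Lox, which cross-links collagen (3.99, SE 1.31, adjusted p = 0.0483), Vldlr, a lipoprotein receptor (3.52, SE 0.94, adjusted p = 0.0225), Ero1a, which drives disulfide formation (2.51, SE 0.41, adjusted p = 0.00307), and Bnip3, which promotes mitophagy (2.28, SE 0.56, adjusted p = 0.0157). Lox as deposited differed by 3.27 (adjusted p = 0.0723) and Bnip3 by 1.56 (adjusted p = 0.0512), so both calls end there, and those of Lox, Vldlr and Bnip3 end without either array labelled DKO. The Lox call passed in 4 of 17 alternatives, that of Vldlr in 13 of 16 and that of Bnip3 in 14 of 17. The angiogenic ligand Vegfa was 1.61 higher (adjusted p = 0.0328), and 0.89 higher on the deposited scale (adjusted p = 0.167).

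Against Ets1KO, 17 of the 29 rose and 0 fell in the arrays labelled DKO relative to array medians. Of all 11015 genes 17.4% rose and 1241 fell on that scale. As deposited 9 of the list rose and 1 fell, where 1.72% of all genes rose and 4710 genes fell. Among called genes Vldlr (4.86), the nuclear receptor Rora (3.38), Ero1a (2.62) and Higd1a (2.46) led, while Lox differed by 3.64 (adjusted p = 0.065). The 2 other Rora probe sets gave 2.26 and -0.07. Against Ets2KO 16 rose and 0 fell relative to array medians, where 17.1% of all genes rose and 1454 genes fell. As deposited 11 rose and 1 fell, where 3% of all genes rose and 4773 genes fell. Lox (5.95), Bnip3 (3.79), Higd1a (3.62) and Ero1a (3.32) led the called genes there. Higd1a and Ero1a passed in all 17 alternative settings of both comparisons.

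Neither single loss gave a call on this list. In Ets2KO against WT 0 of 29 passed by limma and 7 had an unadjusted p below 0.05, as did 19% of all genes, with a median of -0.53 and 23 of 29 below 0. The widest differences were those of Lox (-1.98, SE 1.19, adjusted p = 0.397) and of Tfrc, the transferrin receptor (-1.92, SE 0.36, adjusted p = 0.0641). That of Lox ran from -3.26 without WT replicate 1 to 0.58 with sex as a covariate, where its direction turned. In Ets1KO against WT 0 of 29 passed and 4 had an unadjusted p below 0.05, where 8.62% of all genes did, with a median of -0.08. Angptl4, a secreted inhibitor of lipoprotein lipase, differed by -3.19 (SE 0.49, adjusted p = 0.133) and Rora by -2.01 (SE 0.57, adjusted p = 0.446). The mean of the 29 genes relative to array medians was 2.02 and 2.30 in the arrays labelled DKO, 0.22 to 0.72 in Ets2KO, 0.24 to 0.74 in Ets1KO and 0.87 to 1.02 in WT.

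Genes that sense oxygen or turn HIF over were listed as 18, with 17 measured. Egln1, the main HIF prolyl hydroxylase, was 2.77 higher in the arrays labelled DKO than in WT (SE 0.31, adjusted p = 0.000657), 2.05 as deposited (adjusted p = 0.000616), and its second probe set was 2.03 higher. Egln2, the remaining member of the family, fell by 0.99 (SE 0.19, adjusted p = 0.00505) and by 1.71 as deposited (adjusted p = 0.000153). Both genes passed in the same direction in all 17 alternatives of each comparison with the arrays labelled DKO. For the list, 4 genes rose and 2 fell against WT relative to array medians, where 16.4% of all genes rose and 12% fell. As deposited 1 rose and 5 fell, where 2.32% of all genes rose and 43.6% fell. Its median was 0.33 on the first scale and -0.39 on the second, where that of all genes was 0.11 and -0.61. Vhl, which recruits hydroxylated HIF for ubiquitination, was 1.34 higher (adjusted p = 0.00405), but 0.62 as deposited (adjusted p = 0.0679), and its other probe set gave -1.98. Eloc, an elongin of the same ligase, was 0.73 higher (adjusted p = 0.0168) and 0.01 as deposited (adjusted p = 0.968), and 1 of its other probe sets gave -0.89.

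Of the HIF subunits, only Hif3a was called in the arrays labelled DKO against WT on both scales. It was 0.46 lower relative to array medians (SE 0.14, limma adjusted p = 0.0376) and 1.18 lower as deposited (adjusted p = 0.000178). After quantile normalization it differed by -0.40 (adjusted p = 0.0646). Hif1a differed by 0.20 between the arrays labelled DKO and WT (adjusted p = 0.457) and by -0.52 as deposited (adjusted p = 0.0553), and another of its probe sets gave -3.31 relative to array medians. Against Ets2KO Hif1a was 0.92 higher (SE 0.19, adjusted p = 0.00755), but 0.21 as deposited (adjusted p = 0.398). Its other probe sets gave 1.58 and -2.32 there relative to array medians, and averaging all of them ended the call. Against Ets1KO Hif1a was 0.67 higher (SE 0.19, adjusted p = 0.0285), but differed by -0.09 as deposited (adjusted p = 0.732). The other probe sets gave 1.02 and -2.95 in that comparison. In Ets2KO Hif1a differed from WT by -0.73 (SE 0.17, adjusted p = 0.0972) and in Ets1KO by -0.43 (SE 0.17, adjusted p = 0.546). Epas1, which encodes the HIF-2 alpha subunit of endothelium, differed by -1.44 in Ets1KO (SE 0.75, adjusted p = 0.625). By limma 0 of the 17 passed in either single loss, with 2 at an unadjusted p below 0.05 in Ets2KO and 1 in Ets1KO, where 19% and 8.62% of all genes were.

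**Figure D4:**
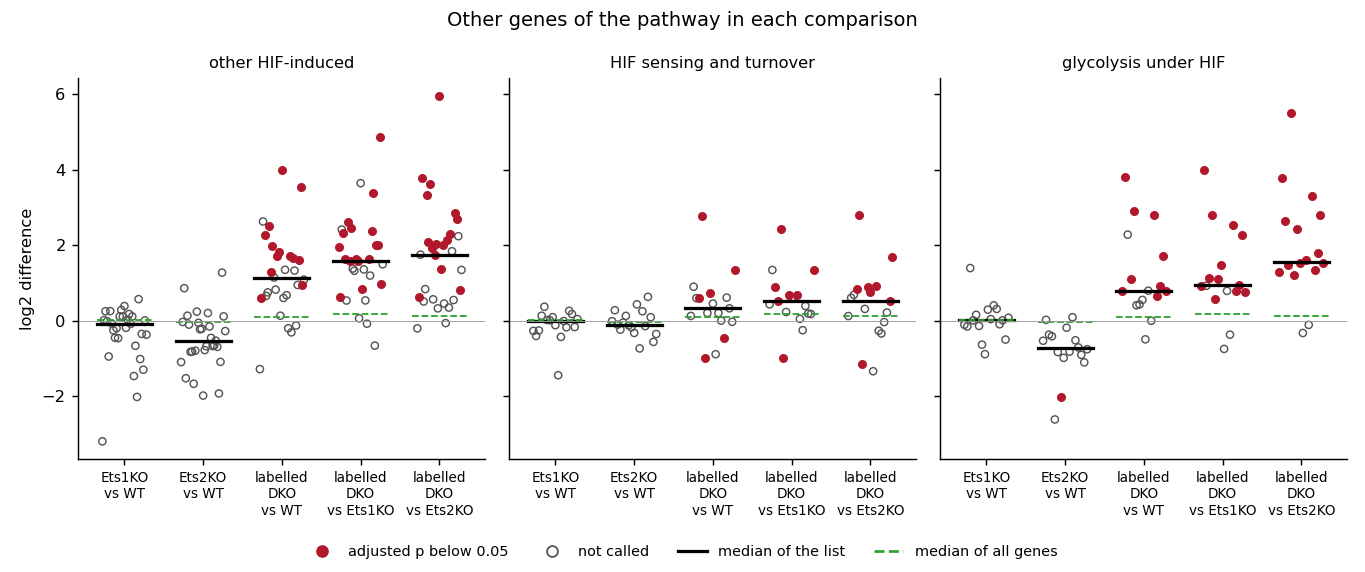
Log2 difference of each measured gene of 3 lists (29 other HIF-induced genes, 17 of HIF sensing and turnover, 16 of glycolysis) in 5 comparisons, filled red where the limma adjusted p is below 0.05, with the list's median (black) and that of all genes (dashed green). Single-loss comparisons are as deposited and the others relative to array medians, where the list medians against WT are 1.14, 0.33 and 0.80.

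Glycolytic genes under HIF control gave 9 rises and 0 falls among 16 measured against WT in the arrays labelled DKO relative to array medians. Of all genes 16.4% rose and 12% fell on that scale. As deposited the list gave 4 rises and 1 fall, where 2.32% of all genes rose and 43.6% fell. Among the rises relative to array medians, Aldoa, Tpi1, Pgk1 and Pgam1 lay 4.48, 4.31, 4.71 and 4.13 above the median in WT. As deposited these bright genes differed by 0.06, 0.08, 0.20 and -0.07. After quantile normalization none was called (limma adjusted p = 0.0683, 0.153, 0.081 and 0.253). The part of the median subtraction in their rises was not tested. The aldolase Aldoc was 3.80 higher (adjusted p = 0.00135), the hexokinase Hk2 2.91 (adjusted p = 0.00261) and the glucose transporter Slc2a1 1.72 (adjusted p = 0.00433). Pfkp, a phosphofructokinase, was 2.81 higher (adjusted p = 0.000375), though another of its probe sets gave -4.24. In Ets2KO Pdk1, which holds pyruvate back from mitochondria, fell by 2.02 (SE 0.31, adjusted p = 0.0459), the only call of the list, where 0.145% of all genes fell. That call ends in 14 of 18 alternatives, among them every fit that leaves out a WT or an Ets2KO array. The median of the 16 genes in Ets2KO was -0.73, with 14 below 0 and 10 at an unadjusted p below 0.05, as were 19% of all genes.

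Close relatives and partners of the 6 genes were listed as 19, with 15 measured. Of these, 2 rose and 1 fell against WT in the arrays labelled DKO relative to array medians, where 16.4% of all genes rose and 12% fell. The lists overlap here, since Egln1 and Egln2 were also counted under HIF sensing and P4ha1 among the other HIF-induced genes. On the deposited scale 2 rose and 3 fell, where 2.32% of all genes rose and 43.6% fell. P4ha1, the sister subunit of P4ha2, was 1.71 higher (SE 0.27, adjusted p = 0.00243) and 0.99 as deposited (adjusted p = 0.0146), but its other probe set gave -1.97. P4hb, the subunit that both share, differed by -0.04 relative to array medians (adjusted p = 0.913) and by -0.76 as deposited (adjusted p = 0.0169). Ndrg3 differed by -0.10 relative to array medians (adjusted p = 0.799) and by -0.82 as deposited (adjusted p = 0.0318). Of the adrenomedullin receptor parts, Calcrl was 1.74 higher in the arrays labelled DKO than in Ets2KO relative to array medians (SE 0.53, adjusted p = 0.0359) but 1.03 as deposited (adjusted p = 0.149) and -1.66 relative to array medians at its other probe set. That call passed in 7 of 16 alternatives. Ramp2 differed between the same groups by -0.94 (adjusted p = 0.316). The decoy receptor Ackr3 was 3.29 higher in the arrays labelled DKO than in Ets2KO (SE 0.98, adjusted p = 0.0326) and 2.59 as deposited (adjusted p = 0.0569), a call that passed in 10 of 17 alternatives. Among carbonic anhydrases, Car2 was 1.26 higher in Ets2KO than in WT (SE 0.27, adjusted p = 0.0782), the opposite direction to Car9.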

How the data were processed

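Values are log2 expression per probe set as deposited by the authors, made with RMA per the submitters' processing notes. Its version and settings are not given in the sources used here. Titles and genotypes set the groups, since short descriptions of Ets1KO and Ets2KO samples say wild type. Of 20523 probe sets 18824 carry 1 symbol in the platform annotation, 549 several and 1150 are unlisted. The brightest probe set of each gene over 11 arrays entered 1 model of 4 groups, with 7 residual degrees of freedom, in limma 3.58.1 (R 4.3.3). Benjamini-Hochberg adjustment ran over 11015 genes within each of 5 comparisons, and the threshold was 0.05. The fit was tested on simulated data. The 6 genes and the gene lists were chosen with earlier results of these data known. Named genes are the 6, Ets1, Ets2, Xist, Eif2s3y, the 5 most alike, and of each list the 4 widest called differences, or 2 where none passed. Vegfa, P4hb, Ndrg3, Ramp2, Hif3a, Flt1, Eng and Cd34 were added after their values were seen. So were Tpi1, Pgk1, Pgam1, Postn, Acta2, Tagln, Pdgfra, Smtn, Fbln1 and Des. Same-numbered arrays of different groups did not deviate together (15 pairs, correlations -0.32 to 0.10), so numbers were not used as pairs. The small number of arrays limits the precision. Figures used matplotlib 3.10.9 in Python 3.11.15.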

Additional observations from a re-analysis of the deposited data

Results flagged for a closer look

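Egln3, P4ha2 and Ankrd37 drew attention because their differences ran in opposite directions in 2 comparisons that the labels set apart only by Cre or by Cre and floxed Ets2, the arrays labelled DKO against Ets1KO and Ets2KO against WT. The brighter Ets1 probe sets do not bear out the label DKO. A dimmer Ets1 probe set, however, averaged 6.77 in the arrays labelled DKO, 8.26 in Ets1KO and 8.77 in WT. At its brightest probe set Ets2 was not called lower in the arrays labelled DKO than in WT. Ets2 was not called lower in Ets2KO either (-0.44 against WT, limma adjusted p = 0.557), so its level cannot settle the label. Every array labelled DKO lay above every Ets1KO array, while every Ets2KO array lay below every WT array, as deposited and relative to array medians. For Egln3 the arrays labelled DKO were 3.46 above Ets1KO and Ets2KO differed from WT by -2.69 relative to array medians, which lie apart by 6.14. For P4ha2 the values were 3.48 and -1.74, apart by 5.21, and for Ankrd37 2.50 and -1.83, apart by 4.33. The 3 genes were chosen with these directions in view, and the difference between the effects was not tested here.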

How the results depend on the processing

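All 6 genes kept their sign in every alternative that gave a value in the 4 comparisons used in choosing them or sharing their arrays. In Ets1KO against WT the sign changed in 1 of 17 alternatives for Egln3 and in 2 of 18 each for P4ha2 and Ndrg1, and 0 of 6 passed in any. Restricting the fit to genes above the median kept only P4ha2 and Ndrg1 of the 6. As deposited, calls numbered 5054 against WT, 4900 against Ets1KO and 5103 against Ets2KO for the arrays labelled DKO, where 3118, 3157 and 3336 passed relative to array medians, and 8 and 10 of the other HIF-induced genes passed against WT and Ets1KO. Genes above the median gave 1758, 1842 and 1899 calls in the same order, and 11 for Ets2KO against WT (33 otherwise). With only the arrays compared the calls were 0 for Ets1KO and 0 for Ets2KO against WT, and for the arrays labelled DKO 1325 against WT (7 other HIF-induced) and 1886 against Ets2KO. Averaging all probe sets of each gene gave 52 calls for Ets2KO against WT, sex as a covariate 4, and averaging and array medians each called 1 other HIF-induced gene there. Averaging also turned Vhl (-0.32 against WT, -0.46 against Ets1KO, -0.046 against Ets2KO), P4ha1 (-0.13 against WT, -0.31 against Ets1KO) and Pfkp (-0.28 against Ets1KO), by averaging probe sets of opposite sign.

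With the replicate number as a block, 5 genes passed for Ets2KO against WT, 1 for Ets1KO against WT, and 2527, 2518 and 2700 for the arrays labelled DKO against WT, Ets1KO and Ets2KO. The numbers do not pair the arrays. Leaving out 1 array at a time gave 1 to 34 genes for Ets1KO against WT (34 without WT replicate 3) and 0 to 69 for Ets2KO (0 without Ets2KO replicate 1, 69 without WT replicate 3). It gave 1926 to 3424, 2010 to 3527 and 2275 to 3646 for the arrays labelled DKO against WT, Ets1KO and Ets2KO. Other HIF-induced calls ranged over 0 to 1 in Ets2KO, 6 to 16 against WT, 11 to 20 against Ets1KO and 11 to 17 against Ets2KO, with 6 and 11 without the second array labelled DKO. The causes were not tested. With 2 arrays labelled DKO, leaving out 1 assumes that the other varies like the rest.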
